A study of Mus musculus with 8 samples.

Results

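The genes described here are the RNA helicases, splicing factors and RNA-binding proteins of cultured mouse muscle cells, 92 of the 5457 genes in the deposited table. They were taken by symbol alone: the DEAD-box and DEAH-box helicases (Ddx, Dhx), the Hnrnp, Srsf, Sf3a, Sf3b, Prpf, Rbm, Rbfox, Mbnl, Celf, Mex3 and Igf2bp families, with Fmr1, Fxr1 and Pum2 added by name. Of these, 9 are muscle splicing regulators (Rbfox1, Rbfox2, Mbnl1, Mbnl2, Celf1, Celf2, Rbm20, Rbm24 and Rbm38), out of 15 looked for. The other 83 are called general factors here: 23 helicases, 18 hnRNP proteins, 10 SR proteins, 11 core spliceosome proteins, 13 other RBM proteins, and 8 regulators of translation or mRNA stability.

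RNA was sequenced from 8 libraries, 2 in each of 4 groups, of cells that were positive for the red fluorescent protein tdTomato (tdTO) and sorted from hind limb skeletal muscle of adult C57BL/6 mice. The Pax7 groups carried Pax7-CreERT2/+;R26-tdTO+ and the Tw2 groups Tw2-CreERT2/+;R26-tdTO+, in which a tamoxifen-inducible Cre switches on the reporter. Tamoxifen was given 3 times, 10 days before harvest, so that tdTomato marks cells in which the Pax7 or Twist2 allele drove Cre at that time, and their descendants. Pax7 is the transcription factor that marks satellite cells, from which injured muscle regenerates. The culture protocol, which names only Twist2 cells but stands with all samples, plated them on Matrigel in Ham's F10 medium with 20% FBS, read here as the growth medium (GM) of the Pax7_GM and Tw2_GM titles. The medium for differentiation was DMEM with 2% horse serum and bFGF, and both held 2% Primocin. Titles of the other 2 groups, Pax7_48 and Tw2_48, give 48 (in hours for Tw2 only), and the labels do not say that these cultures were in the second medium. They also do not say whether the libraries came from separate mice or cultures, so p-values measure only the spread between these libraries, which may be technical.

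Most mammalian genes with several exons are spliced in more than one way. SR proteins mostly promote the use of exons, many hnRNP proteins oppose it, and the Sf3a, Sf3b and Prpf proteins belong to the spliceosome itself. Muscle adds a layer of regulators: Rbfox, Mbnl, Celf, Rbm20, Rbm24 and Rbm38 proteins bind near exons of sarcomere, calcium-handling and cytoskeletal genes, or in 3' ends, as myoblasts form muscle fibres. Fmr1, Fxr1, Pum2, Igf2bp2 and Mex3 proteins act later, on the translation and decay of mRNA in the cytoplasm.

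Each group mean in the authors' table, in counts per 1000000 reads (CPM), was taken apart into the whole reads of its 2 libraries, called deeper and shallower. Implied sizes, in units of 1000000 reads, were 5.18 and 7.38 in Pax7_GM, 7.64 and 10.6 in Pax7_48, 11.3 and 12.2 in Tw2_GM, and 9.40 and 13.7 in Tw2_48, and 83 members were at 10 CPM or more in all 8 libraries. The table lists only genes that differed at least 2-fold from Tw2_GM in some other group, and the shares given here count only genes picked in that way. The Pax7_GM libraries stood apart from one another. Their median absolute log2 ratio was 0.50 over the members, against 0.11 to 0.13 in the other groups, and 75 of the 92 members were lower in the deeper library, 15 of them at least 2-fold. That ratio rose with the GC content of the gene's transcript (Spearman's rho 0.78 over the 92 members and 0.76 over all genes, a description across genes of 1 pair of libraries). Main counts that use Pax7_GM, and the values of genes whose call or size turns on one of its libraries, are therefore given without each of them too. All 8 libraries share 1 estimate of the spread per gene, so this disagreement also entered the SEs and calls of comparisons without Pax7_GM. In Tw2_48 against Tw2_GM or Pax7_48, fewer members were called with all 8 libraries than with 1 Pax7_GM library left out. Myogenic markers were present in every group, and Myog, the transcription factor of differentiation, was at 89.1 to 439 CPM in GM and at 2247 to 3859 CPM in the 48 cultures. Pax7 itself was at 109 to 117 CPM in GM in both lineages and at 9.58 to 13.0 CPM in the 48 cultures. In these bulk samples, fewer cells of a type and less RNA per cell cannot be told apart.

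Most muscle splicing regulators rose between GM and the 48 cultures, and most of the general factors that were called fell. In Pax7 cells 7 of the 9 regulators rose and none fell, and in Tw2 cells 6 rose and 1 fell, by a limma test at adjusted p under 0.05. Over all 5452 genes tested, 38.8% rose and 40.5% fell in Pax7 cells, and 35.3% rose and 48.9% fell in Tw2 cells. Without the deeper Pax7_GM library 7 rose and 1 fell in Pax7 cells, and without the shallower one all 9 rose. The steepest were Rbm24, Rbfox1 and Rbm38.

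Rbm24, which promotes the inclusion of many heart and muscle exons, was at 64.1 and 77.0 CPM in Pax7_GM and at 337 and 280.5 CPM in Pax7_48. In the Tw2 cells it was at 53.1 and 50.0 CPM in GM and at 472 and 452 CPM in the 48 cultures. Every 48 library thus stood above every GM library. The log2 fold change was 2.11 ± 0.15 (standard error, SE; adjusted p = 3.72e-06) in Pax7 cells and 3.14 ± 0.15 (adjusted p = 2.58e-07) in Tw2 cells. Rbm38, its close relative, which also binds 3' ends and stabilises mRNA such as that of Cdkn1a, moved from 70.7 and 56.9 CPM to 197 and 228 CPM in Pax7 cells. In Tw2 cells it went from 37.5 and 38.5 CPM to 181 and 180.1 CPM. Its log2 fold changes were 1.73 ± 0.15 and 2.22 ± 0.15 (adjusted p = 1.17e-05 and 1.92e-06). Both genes were thus up in both lineages with no overlap between GM and 48 libraries.

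Because Rbm24 and Rbm38 moved together, and Fmr1, described further on, moved the other way, their promoters are shown from 250 bases before to 50 bases after the RefSeq start (GRCm38.p6, 5' to 3' on the gene's strand). Capitals mark CANNTG, the E-box core bound by MyoD-family and many other basic helix-loop-helix factors, which reads alike on both strands. The windows are chr13:46418050-46418349 for Rbm24, chr2:173021652-173021951 for Rbm38 and chrX:68678291-68678590 for Fmr1 (the first of its 2 RefSeq starts), all on the plus strand.
Rbm24: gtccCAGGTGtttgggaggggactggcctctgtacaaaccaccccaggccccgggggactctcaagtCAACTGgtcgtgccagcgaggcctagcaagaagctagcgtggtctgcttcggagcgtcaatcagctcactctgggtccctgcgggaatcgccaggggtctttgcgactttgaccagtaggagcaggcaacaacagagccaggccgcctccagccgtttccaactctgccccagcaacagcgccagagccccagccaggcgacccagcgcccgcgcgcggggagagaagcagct
Rbm38: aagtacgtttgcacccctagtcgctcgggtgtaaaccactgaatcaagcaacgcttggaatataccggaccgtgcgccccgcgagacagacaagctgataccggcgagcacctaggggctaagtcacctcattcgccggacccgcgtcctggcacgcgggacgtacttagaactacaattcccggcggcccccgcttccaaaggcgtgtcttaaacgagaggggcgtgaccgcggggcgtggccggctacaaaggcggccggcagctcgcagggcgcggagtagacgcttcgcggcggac
Fmr1: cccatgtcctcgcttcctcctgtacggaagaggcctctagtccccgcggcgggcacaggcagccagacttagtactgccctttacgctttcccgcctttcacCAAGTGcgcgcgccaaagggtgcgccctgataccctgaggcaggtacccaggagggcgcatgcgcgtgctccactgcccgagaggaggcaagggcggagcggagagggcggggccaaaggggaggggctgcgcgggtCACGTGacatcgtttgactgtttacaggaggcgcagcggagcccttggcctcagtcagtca
The Rbm24 window held 2 such matches, the Rbm38 window 0 and the Fmr1 window 2. RefSeq gave 111 promoters for 80 of the 92 members, of which 58.6% held CANNTG, against 72.3% of all 32851 mouse promoters of that length. The narrower CAGCTG, which is contained in CANNTG, was in 9.91% of the members' promoters and 16.3% of all, and in none of the 3 shown. These matches describe letters and not binding.

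Among the Rbfox genes, whose proteins bind GCAUG and act on muscle exons in both directions, Rbfox1 had few reads in GM. Pax7 cells had 8.40 and 10.4 CPM in GM and 30.1 and 27.2 CPM at 48, and Tw2 cells 9.12 and 11.2 CPM, then 65.9 and 61.9 CPM. The log2 fold changes were 1.51 ± 0.16 in Pax7 cells (adjusted p = 3.48e-05) and 2.54 ± 0.16 in Tw2 cells (adjusted p = 1.15e-06). Rbfox2 was at 333 and 361 CPM in Pax7_GM and 317 and 304 CPM in Tw2_GM, and reached 679 and 633 CPM in Pax7_48 and 829 and 759 CPM in Tw2_48. It rose by 0.92 ± 0.13 (adjusted p = 0.000204) and 1.35 ± 0.13 (adjusted p = 1.54e-05) on the log2 scale. Both genes were higher in each 48 library than in each GM library.

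Rbm20, which represses exons of titin and other sarcomere genes, was at 78.4 and 82.4 CPM in Pax7_GM and 159.9 and 134 CPM in Pax7_48. Its Tw2 levels were 134 and 111 CPM in GM and 262 and 237 CPM at 48. Log2 fold changes were 0.86 ± 0.15 (adjusted p = 0.000905) and 1.02 ± 0.15 (adjusted p = 0.000266). GM and 48 libraries did not overlap within either lineage.

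The Celf and Mbnl families, whose proteins often act in opposite directions on the same exons, differed in how they changed. Celf1 rose from 106 and 144 CPM to 268 and 243 CPM in Pax7 cells (1.04 ± 0.17, adjusted p = 0.000551). In Tw2 cells it went from 294 and 269.6 CPM to 422 and 374 CPM (0.50 ± 0.17, adjusted p = 0.0249), a call that ended without any 1 of the 4 Tw2 libraries (highest adjusted p 0.136). Celf2 rose from 89.6 and 114 CPM to 196 and 190.4 CPM in Pax7 cells (0.93 ± 0.18, adjusted p = 0.00124), and had 300.0 and 235 CPM in growing Tw2 cells and 379.9 and 332 CPM in Tw2_48 (0.42 ± 0.18, adjusted p = 0.0526). Both Celf genes had higher CPM in each Tw2_GM library than in each Pax7_GM library.

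Mbnl1, the muscleblind protein sequestered by CUG repeats in myotonic dystrophy, was the 1 muscle regulator that fell. In Tw2 cells it dropped from 164 and 139 CPM to 64.7 and 51.7 CPM (−1.37 ± 0.34, adjusted p = 0.00475). In Pax7 cells it was at 17.2 and 40.7 CPM in GM and at 22.8 and 23.0 CPM in the 48 cultures (−0.20 ± 0.34, adjusted p = 0.593), and the 48 libraries lay between the GM ones. The Pax7 direction turned on the GM library used, with a called fall without the deeper one (−0.80, adjusted p = 0.000527) and a called rise without the shallower one (0.39, adjusted p = 0.0351). Mbnl2 was called in neither lineage: 18.8 and 42.4 against 43.0 and 38.2 CPM in Pax7 cells (0.50 ± 0.33, adjusted p = 0.189), and 187 and 139.9 against 150.1 and 134 CPM in Tw2 cells (−0.19 ± 0.33, adjusted p = 0.608). Without the shallower Pax7_GM library the Pax7 change of Mbnl2 was a called rise, and without the deeper one it was −0.064. Mbnl3, Rbfox3 and Celf3 to Celf6 were not among the genes analysed here.

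**Figure D1:**
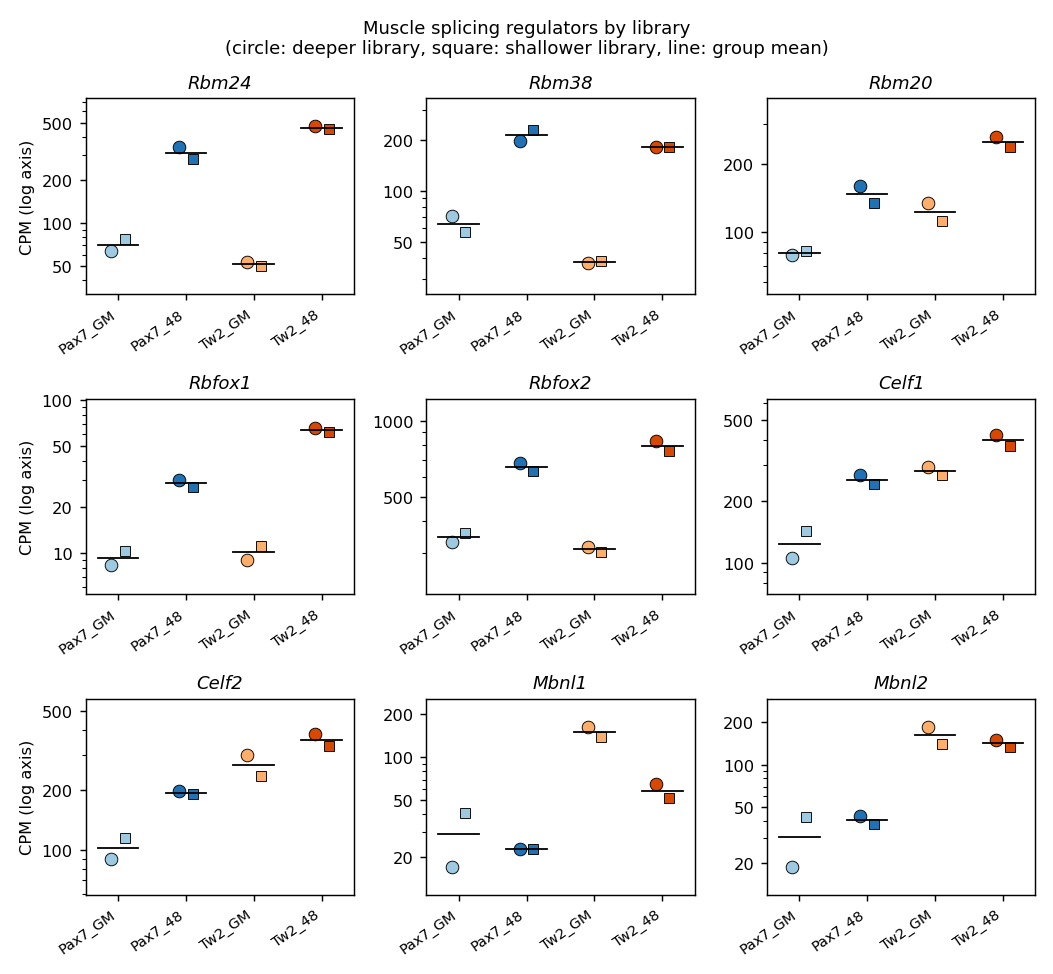
Level of each of the 9 muscle splicing regulators in every library, in CPM on a log axis (circle, deeper library; square, shallower library; line, group mean). Rbm24, Rbm38, Rbfox1 and Rbfox2 sit higher in both 48 groups than in both GM groups, while Mbnl1 and Mbnl2 are separated by lineage.

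Over the deposited group means, the muscle regulators stood further from the general factors between cultures than between lineages. From GM to 48, the median log2 ratio of the authors' means was 0.92 for the muscle regulators and −0.63 for the general factors in Pax7 cells, and 1.02 and −0.96 in Tw2 cells. The gap was thus 1.55 and 1.98. It was 1.55 and 1.42 with the Rbfox, Mbnl and Celf families alone. For Tw2 against Pax7 the medians were 0.60 and 1.37 in GM and 0.76 and 0.90 at 48, a gap of −0.77 and −0.14. With the 3 families alone these gaps were −0.09 and 0.11. Within each library, the median log2(CPM + 1) of the muscle regulators minus that of the general factors was 0.55 and 0.18 in Pax7_GM, 0.01 and −0.07 in Tw2_GM, 2.31 and 2.21 in Pax7_48, and 1.57 and 1.52 in Tw2_48. CPM is not divided by gene length, so only the shift between libraries can be read from these differences, and each 48 library lay above each GM library. Each group enters 2 of the 4 comparisons, so that they share libraries and are not independent of one another.

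**Figure D2:**
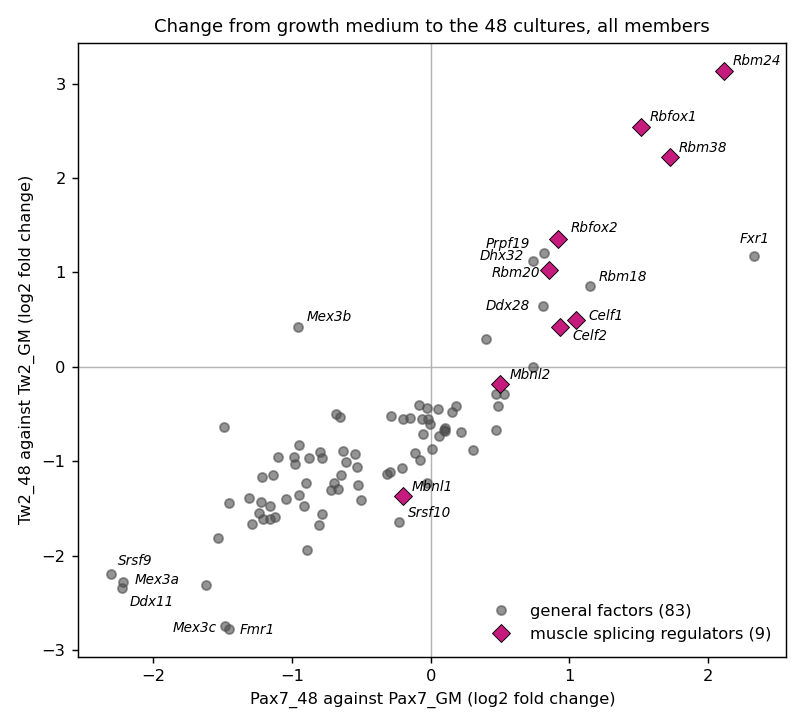
Log2 fold change from GM to the 48 cultures in Pax7 cells (horizontal) and Tw2 cells (vertical) for all 92 members (diamonds, muscle splicing regulators; circles, general factors). Of the 9 muscle regulators 6 were called higher on both axes, and 42 general factors were called lower on both.

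General factors were mostly lower in the 48 cultures. In Pax7 cells 5 of 83 rose and 43 fell (median log2 fold change −0.61), and in Tw2 cells 6 rose and 65 fell (median −0.96), beside medians of 0.01 and −0.49 over all genes. Of these, 42 fell in both lineages, beside 39.4% of all genes, and 5 rose in both, beside 33.2%. Size factors gave 9 and 39 in Pax7 cells and 7 and 45 in Tw2 cells, counts that cannot be set against the shares of all genes given here, which are on the CPM scale. The Pax7 counts moved with the GM library used: without the deeper Pax7_GM library 5 rose and 64 fell, and without the shallower one 24 rose and 41 fell. Of all genes 38.3% rose and 48.4% fell without the deeper one, and 48.1% and 39.6% without the shallower one. Over all 92 members, both 48 libraries stood above both GM libraries in 14 and below in 45 in Pax7 cells, beside 42% and 43% of all genes. In Tw2 cells they stood above in 13 and below in 76, beside 38.8% and 56.2% of all genes.

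By mean CPM, all 10 SR proteins were lowest in Pax7_48 of the 4 groups, beside 31.1% of all genes. That ranking was not made with size factors. In the 48 cultures 8 of 10 fell in Pax7 cells and 9 of 10 in Tw2 cells (medians −0.91 and −1.35), and none rose. The Pax7 count was 10 without the deeper Pax7_GM library and 8 without the shallower one. Srsf9, an SR protein with a short serine- and arginine-rich tail, was at 96.9 and 85.5 CPM in Pax7_GM and 84.1 and 85.8 CPM in Tw2_GM. It was at 17.6 and 17.5 CPM in Pax7_48 and 19.9 and 15.9 CPM in Tw2_48. Its log2 fold changes were −2.31 ± 0.15 (adjusted p = 1.97e-06) and −2.20 ± 0.15 (adjusted p = 1.8e-06), and the lineages overlapped in both cultures. Srsf7, which couples splicing to mRNA export, fell by 1.53 ± 0.12 and 1.82 ± 0.12 on the log2 scale (adjusted p = 7.62e-06 and 2.02e-06).

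Of the 18 hnRNP proteins, 12 fell in Pax7 cells and 17 in Tw2 cells, and none rose. All 18 had their highest mean CPM in Tw2_GM, beside 47.1% of all genes, a ranking not made with size factors. Without the deeper Pax7_GM library 15 fell in Pax7 cells and none rose, and without the shallower one 10 fell and 1 rose. Hnrnpu, a nuclear matrix protein that is among the more abundant hnRNPs, was at 185 and 302 CPM in Pax7_GM and 135 and 135 CPM in Pax7_48, and went from 1045 and 916 CPM to 319 and 291 CPM in Tw2 cells. It fell by 0.81 ± 0.22 (adjusted p = 0.00866) and 1.68 ± 0.22 (adjusted p = 0.000111) on the log2 scale. Hnrnpa3, which binds the same kind of RNA motif as Hnrnpa1 and Hnrnpa2b1, had few reads in Pax7 cells, at 6.10 and 12.3 CPM in GM and 3.01 and 5.89 CPM at 48. Its Tw2 levels were 76.6 and 62.1 CPM and then 20.6 and 14.4 CPM (−1.94 ± 0.35, adjusted p = 0.000859). Many hnRNP genes have processed copies elsewhere in the genome, and how the authors' counting treated reads that match several places is not given in the sources used here.

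Helicases, which unwind or remodel RNA, were mixed: 2 rose and 8 fell of 23 in Pax7 cells (median −0.09, but 0.16 with size factors or without the shallower Pax7_GM library), and 2 rose and 16 fell in Tw2 cells (median −0.67). The 8 falls in Pax7 cells were 34.8% of the class, below the 40.5% of all genes. Without the deeper Pax7_GM library 2 rose and 16 fell, and without the shallower one 10 and 8. Ddx11, a DNA helicase of sister chromatid cohesion rather than an RNA enzyme, fell more than any other helicase in both lineages. It went from 31.7 and 30.7 CPM to 6.01 and 5.76 CPM in Pax7 cells (−2.23 ± 0.13, adjusted p = 1.37e-06) and from 41.3 and 36.7 CPM to 7.35 and 6.39 CPM in Tw2 cells (−2.35 ± 0.13, adjusted p = 6.52e-07). The risers in both lineages were Dhx32, a DEAH-box protein, and Ddx28, which acts in the assembly of mitochondrial ribosomes. Dhx32 was at 41.5 and 38.8 CPM in Pax7_GM and 72.2 and 63.5 CPM in Pax7_48, and Tw2 cells had 34.0 and 32.3 CPM, then 76.2 and 69.9 CPM (0.74 ± 0.13 and 1.12 ± 0.13, adjusted p = 0.000875 and 6.18e-05). For Ddx28 the log2 fold changes were 0.81 ± 0.21 (adjusted p = 0.00605) and 0.64 ± 0.21 (adjusted p = 0.018), the second no longer called without the deeper Tw2_GM library or without either Tw2_48 library (highest adjusted p 0.108).

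Of the 11 core spliceosome proteins 5 fell in Pax7 cells, 45.5% beside the 40.5% of all genes, and 8 in Tw2 cells. Without the deeper Pax7_GM library 1 rose and 8 fell in Pax7 cells, and without the shallower one 5 and 5. The Pax7 median was −0.21, but 0.03 with size factors and 0.30 without the shallower Pax7_GM library. Prpf19, the ubiquitin ligase that gives its name to a spliceosome complex, was the exception. It was at 482 and 368 CPM in Pax7_GM and 723 and 762 CPM in Pax7_48, and moved from 309 and 316 CPM to 714 and 722 CPM in Tw2 cells. The log2 fold changes were 0.81 ± 0.15 (adjusted p = 0.00117) and 1.20 ± 0.15 (adjusted p = 9.64e-05), and the 48 libraries of the lineages stood within 762 and 714 CPM. Among the 13 other RBM proteins, 4 fell in Pax7 cells, 30.8% and so below the share of all genes, and 9 in Tw2 cells, and Rbm18 rose in both (1.15 ± 0.18 and 0.85 ± 0.18, adjusted p = 0.000367 and 0.00182). Without the deeper Pax7_GM library 1 of this class rose and 8 fell in Pax7 cells, and without the shallower one 6 and 4. The Pax7 median of the class, −0.07, was 0.16 with size factors, 0.13 with quantile normalization and 0.27 without the shallower Pax7_GM library. Rbm14, a coactivator of transcription and splicing, fell by 1.45 ± 0.16 and 1.44 ± 0.16 on the log2 scale (adjusted p = 4.37e-05 and 3.69e-05).

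Beside these changes, markers of other cells moved as well. The 3 listed of 5 pericyte and smooth muscle markers (Rgs5, Acta2 and Cspg4) summed to 659 to 808 CPM in GM and 5150.1 to 8639 CPM at 48, nearly all of it Acta2. The other 2 went the other way: Rgs5 went from 11.4 and 18.9 CPM to 0 in both Pax7_48 libraries and from 56.3 and 62.1 to 0.510 and 0.213 CPM in Tw2 cells. Cspg4 went from 27.6 and 24.7 to 10.99 and 13.4 CPM in Pax7 cells and from 60.3 and 84.6 to 22.6 and 20.2 CPM in Tw2 cells. The 6 myogenic markers measured (Pax7, Myog, Des, Cdh15, Tmem8c and Ckm) summed to 1483 to 2571 CPM in GM and 12108 to 12510 CPM at 48, although Pax7 itself fell. Itgam, the 1 listed of 4 immune markers, was at 0 to 0.579 CPM in GM and 11.9 to 22.8 CPM at 48, and Scx, the 1 listed of 3 tenocyte markers, at 27.5 to 110.1 CPM and 219 to 348 CPM. No endothelial or glial marker was among the genes analysed here. The part of these cells in the members' changes was not tested.

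The regulators of translation and stability changed in both directions, with 1 rise and 6 falls of 8 in Pax7 cells and 2 and 6 in Tw2 cells. Of all genes, 38.8% rose and 40.5% fell in Pax7 cells, and 35.3% rose and 48.9% fell in Tw2 cells. The Pax7 median of these 8 was −0.97 without the deeper Pax7_GM library and −0.81 without the shallower one. Fmr1, which encodes FMRP, a repressor of translation lost in fragile X syndrome, and Fxr1, its muscle-rich relative, went in opposite directions. Fmr1 was at 9.08 and 23.9 CPM in Pax7_GM and 5.26 and 4.32 CPM in Pax7_48, while Tw2 cells went from 209 and 162 CPM to 29.9 and 22.6 CPM. Its log2 fold change was −1.46 ± 0.38 in Pax7 cells (adjusted p = 0.00676) and −2.78 ± 0.38 in Tw2 cells (adjusted p = 0.000142). The Pax7 value was −2.11 without the deeper and −0.80 without the shallower Pax7_GM library.

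Fxr1 went from 20.3 and 57.3 CPM to 185 and 169 CPM in Pax7 cells and from 248 and 223 CPM to 561 and 509 CPM in Tw2 cells. Its log2 fold changes were 2.33 ± 0.39 (adjusted p = 0.000571; 1.61 and 3.06 without the deeper and the shallower Pax7_GM library) and 1.18 ± 0.39 (adjusted p = 0.0195). The Tw2 call ended without any 1 of the 4 Tw2 libraries (highest adjusted p 0.0828), although its libraries did not overlap. Within each library, Fxr1 had 2.24 and 2.40 times the CPM of Fmr1 in Pax7_GM and 35.1 and 39.1 times in Pax7_48. In Tw2 cells the ratio was 1.19 and 1.38 in GM and 18.8 and 22.5 at 48. The ratio is not corrected for transcript length, but a change in it does not depend on length or on scaling, and it was higher in each 48 library than in each GM library.

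**Figure D3:**
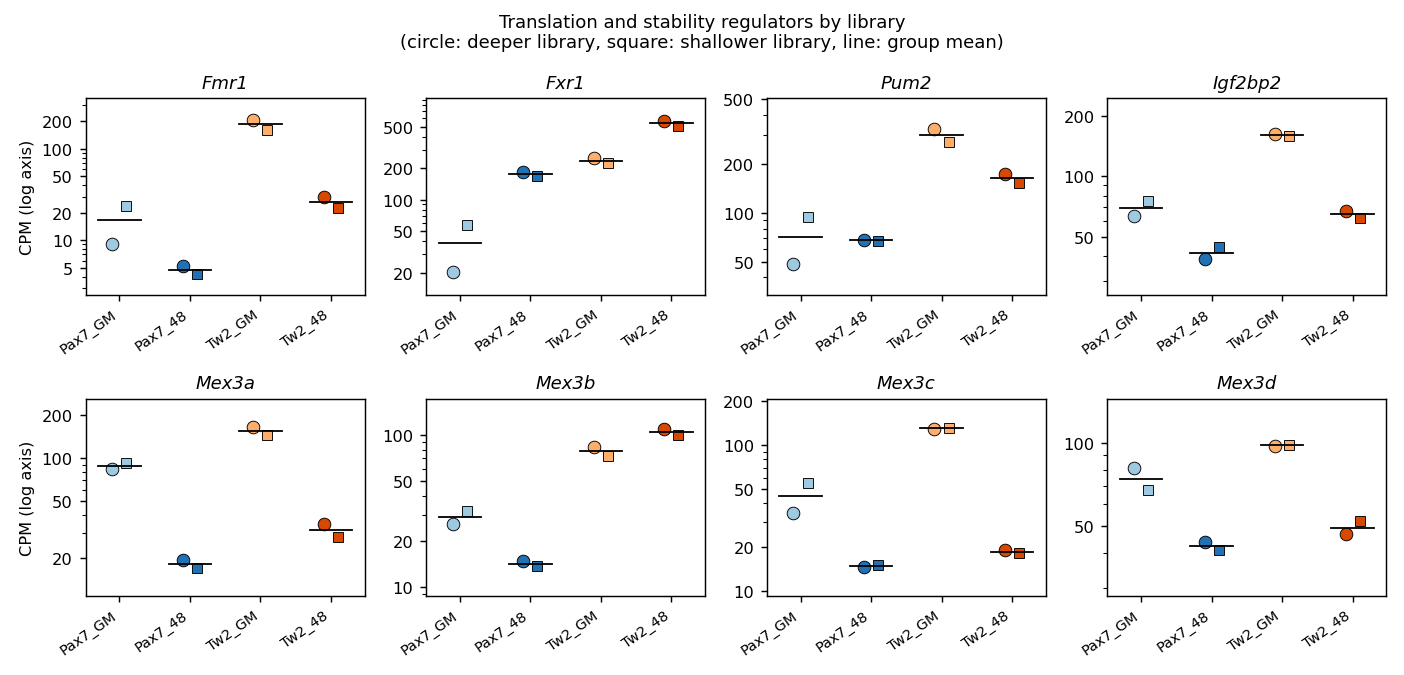
Level of the 8 regulators of translation and stability in every library, in CPM on a log axis (circle, deeper library; square, shallower library; line, group mean). Fxr1 rises and Fmr1 falls from GM to 48 in both lineages, and Mex3b in Tw2_48 (109.9 and 99.9 CPM) stands above every other group.

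The Mex3 proteins pair KH domains with a RING finger and act on mRNA decay and ubiquitination. Mex3a fell in both lineages, from 83.9 and 93.0 CPM to 19.4 and 17.2 CPM in Pax7 cells and from 165 and 146 CPM to 34.6 and 28.1 CPM in Tw2 cells (−2.22 ± 0.15 and −2.28 ± 0.15, adjusted p = 3.14e-06 and 1.92e-06). Mex3c fell more in Tw2 cells, from 130.3 and 132 CPM to 19.1 and 18.3 CPM (−2.75 ± 0.20, adjusted p = 3.46e-06), than in Pax7 cells, from 34.4 and 55.2 CPM to 14.7 and 15.2 CPM (−1.49 ± 0.20, adjusted p = 0.000186). Its 48 libraries came within 14.7 to 19.1 CPM in both lineages.

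Mex3b was the 1 member called in opposite directions in the 2 lineages. It fell in Pax7 cells from 25.9 and 31.8 CPM to 14.8 and 13.7 CPM (−0.96 ± 0.15, adjusted p = 0.000419) and rose in Tw2 cells from 82.9 and 72.9 CPM to 109.9 and 99.9 CPM (0.43 ± 0.15, adjusted p = 0.0269). The rise was no longer called without the shallower Tw2_GM library or without either Tw2_48 library (highest adjusted p 0.156), and the fall kept its call. Mex3d fell by 0.78 ± 0.14 and 0.97 ± 0.14 on the log2 scale (adjusted p = 0.00086 and 0.000204), and Igf2bp2, which binds and stabilises growth-related mRNA in myoblasts, by 0.72 ± 0.14 and 1.30 ± 0.14 (adjusted p = 0.00165 and 3.9e-05). Pum2, a Pumilio repressor, was at 48.2 and 93.6 CPM in Pax7_GM and 68.2 and 67.4 CPM in Pax7_48 (0.01 ± 0.27, adjusted p = 0.97), and fell in Tw2 cells from 328 and 272 CPM to 173 and 154 CPM (−0.87 ± 0.27, adjusted p = 0.0162). That fall was not called without the deeper Tw2_GM or the shallower Tw2_48 library, though with a library left out it stayed at −1.01 to −0.74. Its shared SE also held the spread of Pum2 between the Pax7_GM libraries. In Pax7 cells the change of Pum2 was 0.48 without the shallower Pax7_GM library and −0.46 without the deeper one.

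Between the lineages in GM, most members were higher in Tw2 cells. Of the 92, 76 were called higher and 3 lower (median log2 fold change 1.26), beside 48.7% of all genes called higher, 26% lower and an all-gene median of 0.34. The scaling moves this comparison as a whole. With size factors 46 members were higher and 25 lower (median 0.40, all genes −0.50), and with quantile normalization 59 and 13 (median 0.79, all genes −0.14). The members' median was above that of all genes under each scaling. Without the deeper Pax7_GM library 76 were higher and 2 lower, and without the shallower one 75 and 4. Both Tw2_GM libraries stood above both Pax7_GM libraries in 79 members and below in 6, beside 55.4% and 32.3% of all genes. By class, higher and lower counts were 18 and 0 of 23 helicases, 17 and 0 of 18 hnRNP proteins, 9 and 0 of 10 SR proteins, 8 and 1 of 11 core spliceosome proteins, 11 and 0 of 13 other RBM proteins, and 8 and 0 of 8 translation and stability regulators. The core spliceosome median, 0.78, was −0.08 with size factors, and the muscle regulators' 0.60 was −0.27.

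Fmr1 had the largest lineage difference in GM (3.54 ± 0.38, adjusted p = 0.000125). It was 2.89 without the deeper and 4.20 without the shallower Pax7_GM library. Ddx3x, an X-linked DEAD-box helicase of translation initiation, followed at 38.7 and 117 CPM in Pax7_GM and 759 and 670.3 CPM in Tw2_GM (3.38 ± 0.41, adjusted p = 0.000198, and 2.60 and 4.17 without the deeper and the shallower Pax7_GM library). Ddx3x has a related copy on the Y chromosome. Srsf10, an SR protein that represses splicing when dephosphorylated, had 14.2 and 27.0 CPM in Pax7_GM and 195 and 170.1 CPM in Tw2_GM (3.15 ± 0.26, adjusted p = 4.72e-05). Srsf10 was at 2.71 and 3.59 without the deeper and the shallower Pax7_GM library. In each of these genes both Tw2_GM libraries stood above both Pax7_GM libraries. The next largest were Prpf39, a U1 snRNP protein, at 4.34 and 8.49 against 73.4 and 44.6 CPM (3.03 ± 0.30, adjusted p = 0.000102), and Hnrnph1, which binds G-rich RNA, at 36.7 and 82.0 against 484 and 406 CPM (2.99 ± 0.32, adjusted p = 0.000128). Prpf4b, a kinase of the tri-snRNP, Hnrnpa3, Dhx36, which unwinds G-quadruplexes, Fxr1 and Rbm39 followed, at 2.85 to 2.65. These 7 genes ranged from 2.02 (Fxr1) to 2.62 (Prpf39) without the deeper Pax7_GM library and from 3.17 (Rbm39) to 3.58 (Prpf4b) without the shallower one. The 5 X-linked members (Ddx3x, Fmr1, Hnrnph2, Rbm3 and Rbm41) were all called higher in Tw2 cells in both cultures, with medians of 2.34 and 2.23, beside 1.21 and 0.88 over the 87 members of other chromosomes. With size factors or the GC and length trend removed Rbm3 was called lower in GM (−0.34 and −0.43) and was not called at 48. The X-linked transcripts had 38.6% to 41.5% GC, and the 41 members under the median GC content on other chromosomes had medians of 1.89 in GM and 1.22 at 48. Whether the mice were male or female is not in the labels.

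Among muscle regulators in GM, Mbnl1 and Mbnl2 were higher in Tw2 cells (2.46 ± 0.34 and 2.47 ± 0.33, adjusted p = 0.000305 and 0.000273), as were Celf1 (1.19 ± 0.17, adjusted p = 0.000403), Celf2 (1.39 ± 0.18, adjusted p = 0.000227) and Rbm20 (0.60 ± 0.15, adjusted p = 0.00759). The value of Rbm20 was −0.27 with size factors and was not called without the deeper Tw2_GM library (adjusted p = 0.0704), and that of Celf2 was −0.018 once a trend with GC content and transcript length was removed. Rbfox1 and Rbfox2 were not called (0.10 ± 0.16 and −0.16 ± 0.13). Rbm24 and Rbm38 were lower in Tw2 cells (−0.44 ± 0.15 and −0.72 ± 0.15, adjusted p = 0.0279 and 0.00249), as was Prpf19 (−0.43 ± 0.15, adjusted p = 0.0309), the only members called so. Without the deeper and the shallower Pax7_GM library, Mbnl1 was at 1.86 and 3.06 and Mbnl2 at 1.90 and 3.03. With the trend removed, Rbm24 was at 0.11 and Rbm38 at 0.22, and the Rbm24 and Prpf19 calls ended without 5 and 7 of the 8 libraries in turn, each Tw2 library among them (highest adjusted p 0.128 and 0.123).

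All 8 regulators of translation and stability were higher in Tw2_GM. After Fmr1 came Fxr1 (2.75 ± 0.39, adjusted p = 0.000351), Pum2 (2.14 ± 0.27, adjusted p = 0.000238), Mex3c (1.57 ± 0.20, adjusted p = 0.000252), Mex3b (1.41 ± 0.15, adjusted p = 0.00013) and Igf2bp2 (1.21 ± 0.14, adjusted p = 0.00018). The last 2 depended on the scaling: Mex3a was at 0.81 ± 0.15 (adjusted p = 0.00161) but −0.058 with size factors, and Mex3d, at 97.4 and 97.9 CPM against 80.7 and 67.7 CPM, was at 0.40 ± 0.14 (adjusted p = 0.03) but −0.47 with size factors and −0.17 with quantile normalization. The Mex3d call ended without any 1 library other than the deeper Pax7_GM one (highest adjusted p 0.111). At 48 all but Mex3c (0.31 ± 0.20) and Mex3d (0.21 ± 0.14) were called higher in Tw2 cells, from 0.62 ± 0.14 for Igf2bp2, which was −0.024 with size factors, to 2.79 ± 0.15 for Mex3b. The calls of Fxr1 (adjusted p = 0.00789) and Igf2bp2 (adjusted p = 0.00634) at 48 ended without the deeper Tw2_48 or 1 Pax7_48 library, the shallower for Fxr1 and the deeper for Igf2bp2. With any library left out these values stayed at 1.52 to 1.66 and at 0.52 to 0.72. The shared SE of Fxr1 also held its spread between the Pax7_GM libraries.

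**Figure D4:**
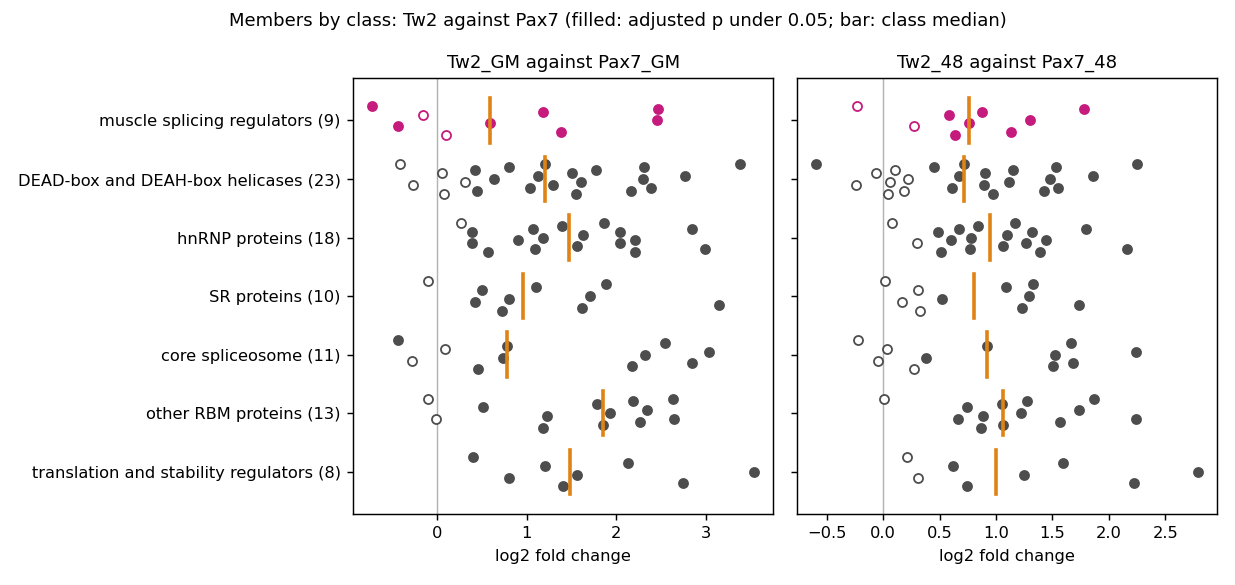
Log2 fold change of Tw2 against Pax7 cells for each member by class, in GM (left) and in the 48 cultures (right); filled points passed adjusted p under 0.05 and bars are class medians. Every class median lies above 0 on the CPM scale (in GM those of the muscle regulators and the core spliceosome were below 0 with size factors), with 76 members called higher in GM and 69 at 48.

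In the 48 cultures 69 of 92 members were higher in Tw2 cells and 1 was lower (median 0.89), beside 43.3% of all genes higher, 22.1% lower and an all-gene median of 0.27. Size factors gave 34 higher and 20 lower (median 0.24, all genes −0.36), and quantile normalization 51 and 3 (median 0.52, all genes −0.02). In 81 members both Tw2_48 libraries stood above both Pax7_48 libraries and in 5 below, beside 55.4% and 34.2% of all genes. In both cultures 66 members were called higher, beside 37% of all genes. Mex3b had the largest difference (2.79 ± 0.15, adjusted p = 2.91e-05), followed by Ddx3x (2.25 ± 0.41, adjusted p = 0.00257) at 95.2 and 92.0 CPM in Pax7_48 and 468 and 431 CPM in Tw2_48. Rbm41, a protein of the minor spliceosome, had few reads in Pax7 cells: 4.51 and 3.01 CPM in Pax7_48 against 22.8 and 19.7 CPM in Tw2_48 (2.24 ± 0.30, adjusted p = 0.000846). Fmr1 was again among the largest (2.23 ± 0.38, adjusted p = 0.00196). Ddx28 was the 1 member lower in Tw2_48, with 25.2 and 24.9 CPM beside 36.1 and 40.5 CPM in Pax7_48 (−0.59 ± 0.21, adjusted p = 0.0338). That call ended without any 1 library outside Pax7_GM (highest adjusted p 0.161), and the value was 0.064 with the GC and length trend removed.

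Of the muscle regulators at 48, 7 were higher in Tw2 cells: Mbnl2 (1.78 ± 0.33), Mbnl1 (1.30 ± 0.34), Rbfox1 (1.13 ± 0.16), Celf2 (0.88 ± 0.18), Rbm20 (0.76 ± 0.15), Celf1 (0.64 ± 0.17) and Rbm24 (0.59 ± 0.15), with adjusted p from 0.00102 to 0.0122. With size factors only 2 of the 9 stayed higher, and 2 were lower. The calls of Celf1, Mbnl1 and Rbm24 ended without the shallower Pax7_48 or the deeper Tw2_48 library. With a library left out their values stayed at 0.55 to 0.72, 1.14 to 1.46 and 0.45 to 0.72. The shared SE of Mbnl1 also held its spread between the Pax7_GM libraries. Rbfox2 and Rbm38 were not called (0.28 ± 0.13 and −0.23 ± 0.15), though Rbfox2 was without either Pax7_GM library. Rbm24 was thus the 1 member lower in Tw2 cells in GM and higher at 48, although the value at 48 was −0.073 with size factors and that in GM 0.11 with the trend removed.

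The summed markers of fibroblasts went opposite to most members between the lineages. The 3 listed of 8 fibro-adipogenic and fibroblast markers (Col1a1, Col1a2 and Prrx1) summed to 440 to 466 CPM in Pax7_GM and 284 to 306 CPM in Pax7_48, against 8.06 to 11.8 CPM in Tw2_GM and 10.2 to 45.9 CPM in Tw2_48. Most of the Pax7 sums was Col1a2 (424 and 387 CPM in GM, 270 and 246 CPM at 48). Col1a1 overlapped between the lineages at 48, at 10.8 and 15.8 CPM in Pax7_48 and 2.04 and 20.3 CPM in Tw2_48, while Col1a2 and Prrx1 did not. Pericyte markers Rgs5 and Cspg4, at the levels given above, were higher in Tw2_GM than in Pax7_GM, as most members were, while Acta2 was lower there (542 and 551 against 769 and 659 CPM). Differentiation genes were lower in Tw2_GM: Myog was at 110 and 89.1 against 439 and 351 CPM, and Tmem8c, which encodes the fusion protein myomaker, at 41.2 and 41.6 against 233 and 199 CPM. At 48 the myogenic markers went both ways. Myog was higher in Tw2 cells (3697 and 3859 against 2491 and 2247 CPM), as was Ckm (1137 and 1141 against 419 and 591 CPM). Lower in Tw2 cells were Tmem8c (2960 and 2940 against 3384 and 3557 CPM), Des (3384 and 3376.5 against 4635 and 4880 CPM) and Cdh15 (988 and 993 against 1169 and 1225 CPM). The part of these cells and of differentiation in the members' lineage differences was not tested.

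The lineage differences also went with base composition. The members' transcripts had a median GC content of 44.8%, against 48.7% over all genes, and the log2 fold change of Tw2_GM against Pax7_GM fell with GC content (Spearman's rho −0.77 over the 92 members and −0.69 over all genes). These are descriptions across genes that share the same libraries. Of the 46 members with the lower GC content, 45 were called higher in Tw2_GM and none lower (median 2.09), and of the other 46, 31 were higher and 3 lower (median 0.58). With a smooth trend in GC content and transcript length removed from each library, 77 members were higher and 4 lower in GM (median 0.95, all genes 0.54), and 70 and 0 at 48 (median 0.62, all genes 0.31). From GM to 48, GC content went less with the change within a lineage: rho was −0.26 in Pax7 cells and 0.01 in Tw2 cells over the members. Over the 83 general factors it was −0.43 and −0.13. In Pax7 cells the 46 members with the lower GC content had a median of −0.10 and the other 46 a median of −0.78. The difference of the 2 changes (Tw2 minus Pax7) rose with GC content, with rho 0.64 over the members and 0.47 over all genes. With the trend removed 16 members rose and 46 fell in Pax7 cells, and 12 rose and 58 fell in Tw2 cells.

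**Figure D5:**
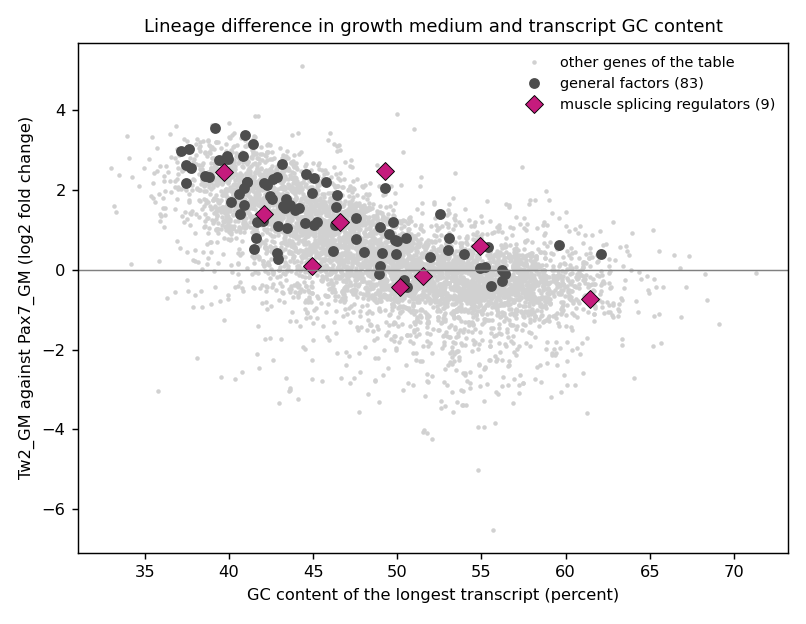
Log2 fold change of Tw2_GM against Pax7_GM (vertical) by GC content of the longest transcript (horizontal, percent) for all genes (small points), general factors (circles) and muscle splicing regulators (diamonds). Members under the median GC content of 44.8% lie higher (median 2.09) than those above it (median 0.58).

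The change from GM to 48 was called different between the lineages for 7 members, 4 in the positive and 3 in the negative direction (Tw2 minus Pax7), beside 9.72% and 9.01% of all genes. Rbm24 and Rbfox1 rose more in Tw2 cells, by 1.02 ± 0.21 (adjusted p = 0.0144) and 1.03 ± 0.22 (adjusted p = 0.0166) on the log2 scale. Mex3b differed by 1.39 ± 0.21 (adjusted p = 0.00392). Rbm15b, which helps to guide the m6A methyltransferase, fell less in Tw2 cells, from 95.9 and 87.4 to 57.8 and 58.8 CPM, than in Pax7 cells, from 107 and 91.1 to 35.2 and 33.6 CPM (0.85 ± 0.19, adjusted p = 0.0188). Srsf10 fell in Tw2 cells from 195 and 170.1 to 59.7 and 55.7 CPM while it was at 17.2 and 16.1 CPM in Pax7_48, between its GM libraries (difference −1.42 ± 0.36, adjusted p = 0.0304). Mex3c (−1.26 ± 0.29, adjusted p = 0.0204) and Dhx34 (−0.69 ± 0.20, adjusted p = 0.0498), a helicase of nonsense-mediated decay, fell more in Tw2 cells. Of these 7 calls, only that of Mex3b held with each of the 8 libraries left out in turn (highest adjusted p 0.0285). The other 6 ended without either Tw2_48 library, among others, with a highest adjusted p of 0.0691 to 0.191. Counts depended on the Pax7_GM libraries: without the deeper one 5 members differed in the positive and 7 in the negative direction, and without the shallower one 6 and 58.

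Across the 4 group means, 73 of the 92 members were highest in Tw2_GM, against 47.1% of all genes, and 61 were lowest in Pax7_48, against 31.1%. The muscle regulators again stood apart, with 6 of 9 highest in Tw2_48, against 20.4% of all genes, and 2, Mbnl1 and Mbnl2, in Tw2_GM. These rankings are on the CPM scale and were not repeated with size factors. Those factors were 1.55 and 1.51 in Tw2_GM and 0.71 and 0.70 in Pax7_48. In the authors' deposited table, 57 members were at least 2-fold lower and 0 higher in Pax7_GM than in Tw2_GM (33.4% and 9.66% of all genes), 79 and 7 in Pax7_48 (54.2% and 30.8%), and 40 and 8 in Tw2_48 (38.1% and 26.1%). These 3 comparisons share Tw2_GM, and the table was chosen on them.

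Other genes of the pathway, outside the families above, were counted from a separate list of 111, of which 74 were measured. From GM to 48, 14 rose and 33 fell in Pax7 cells and 7 rose and 49 fell in Tw2 cells, with medians of −0.36 and −0.81. The 33 falls in Pax7 cells were 44.6% of the list, near the 40.5% of all genes, and the 49 in Tw2 cells were 66.2%, beside 48.9%. Without the deeper and the shallower Pax7_GM library, the Pax7 counts were 11 and 47, and 29 and 32. Srpk3, a muscle-specific kinase of SR proteins, rose most, from 14.2 and 12.5 CPM to 188 and 194 CPM in Pax7 cells and from 3.20 and 2.57 CPM to 208 and 186 CPM in Tw2 cells. Its log2 fold changes were 3.74 ± 0.14 and 5.68 ± 0.14 (adjusted p = 2.42e-07 and 1.49e-08). Ptbp1, a repressor of muscle and neural exons that is known to fall as myoblasts differentiate, went from 849.9 and 696 CPM to 103 and 101 CPM in Pax7 cells (−2.91 ± 0.14), and from 666 and 706 CPM to 82.2 and 77.6 CPM in Tw2 cells (−3.09 ± 0.14). Ptbp2, its relative, fell by 1.52 ± 0.17 on the log2 scale in Tw2 cells and was at 11.7 and 15.6 CPM in Pax7_GM and 11.9 and 10.1 CPM in Pax7_48. Zfp36l1, which speeds the decay of mRNA with AU-rich elements, was lower in Tw2_GM, at 10.8 and 10.3 against 21.3 and 24.1 CPM, and higher in Tw2_48, at 95.7 and 89.2 against 43.9 and 44.4 CPM. Its relative Zfp36l2 fell in both lineages, from 210.1 and 237 to 23.8 and 20.9 CPM and from 382 and 376 to 18.9 and 18.6 CPM. In GM 58 of the 74 were higher in Tw2 cells and 2 were lower (48.7% and 26% of all genes), and at 48, 51 and 2 (43.3% and 22.1%). With size factors these counts were 36 and 22 in GM and 30 and 20 at 48, a scale for which no shares of all genes are given here. The strand handling of the libraries is not given in the sources used here, so reads of a gene and of an overlapping antisense gene cannot be told apart.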

How the data were processed

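The deposited table gives, per gene, the mean CPM of each of the 4 groups and the authors' log2 fold changes against Tw2_GM. Per the submitters' processing notes, the tools were TopHat2 2.0.0 together with DESeq2 1.6.3 on GRCm38, their roles not being stated. Strand and handling of multiply mapped reads are not given in the sources used here. The filter is given only by thresholds in the name of the deposited table, and its values meet them: all 5457 listed genes are at least 2-fold from Tw2_GM in 1 group and at 10 CPM or more in at least 4 libraries.

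CPM steps of whole reads let each deposited mean be taken apart into its 2 libraries (5452 genes with 1 solution, all 92 members among them). The solution holds each mean within 1.1 rounding errors of the 12 digits given, and the implied library sizes are not themselves whole numbers. At these sizes 3 reads correspond to 0.218 to 0.579 CPM, a limit for counting error only. Log2(CPM + 1) was fitted with limma 3.58.1 in R 4.3.3, 1 mean per group over all 8 libraries, with Benjamini-Hochberg adjustment over the 5452 genes, and called at adjusted p under 0.05. With 4 residual degrees of freedom, the median SE was 0.164. Solving and counting used Python 3.11.15, numpy 2.4.6 and pandas 2.3.3. The fits were also run on simulated data in which all libraries had the same spread. Disagreement like that between the Pax7_GM libraries was not simulated. Fold changes on the log2(CPM + 1) scale understate changes of low genes. Alternatives were pseudocounts of 0.1 and 5, no filter or a mean of at least 20 CPM (the filter at 1 CPM removed no gene), size factors, quantile normalization, removal of a spline trend (5 degrees of freedom) in GC content and transcript length, a trended prior, only the 4 libraries compared, and each library left out.

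Genes named are every listed muscle regulator and translation or stability regulator, Pax7, the 10 called members with the largest change per direction whose libraries did not overlap (5 for the difference of changes), and up to 3 other splicing genes per direction. The markers are a separate list. Members and lists were chosen with earlier results of these data known. Promoters are from RefSeq.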

Additional observations from a re-analysis of the deposited data

Results flagged for a closer look

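For 7 members the change from GM to the 48 cultures differed between the lineages (Tw2 minus Pax7, limma interaction over all genes). As a share of the 92 members this is below that of all genes, 9.72% in the positive and 9.01% in the negative direction. Mex3b fell in Pax7 cells and rose in Tw2 cells, a difference of 1.385 on the log2 scale (adjusted p = 0.00392). Rbfox1 and Rbm24, both muscle splicing regulators, rose more in Tw2 cells, by 1.028 (adjusted p = 0.0166) and 1.024 (adjusted p = 0.0144). Rbm15b fell less in Tw2 cells, with a difference of 0.8485 (adjusted p = 0.0188). Srsf10 fell in Tw2 cells and was not called in Pax7 cells, a difference of −1.416 (adjusted p = 0.0304). Mex3c and Dhx34 fell more in Tw2 cells, with differences of −1.261 (adjusted p = 0.0204) and −0.6921 (adjusted p = 0.0498). All but Mex3b lost the call in 5 or 6 of the 8 fits that each left out 1 library. The Pax7_GM libraries, which stand apart from each other, enter all 7 values.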

How the results depend on the processing

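No paired analysis was possible because the deposited columns are group means and carry no replicate numbers. Of the alternative values of named genes, 1978 kept their direction and side of the threshold, 120 lost and 47 gained a call, and 43 changed sign; causes were not tested. Depth limits few members, as 83 of 92 had 10 CPM or more in all libraries.

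Tw2_GM against Pax7_GM gave 46 members higher and 25 lower with size factors (median 0.40), 13 lower with quantile normalization (median 0.79), 1 lower with only the 4 libraries compared, and 68 to 76 higher and 1 to 4 lower with a library left out. Signs changed with size factors for Mex3a (−0.058), Mex3d (−0.47), Rbfox1 (−0.68) and Rbm20 (−0.27), with quantile normalization for Mex3d (−0.17) and Rbfox1 (−0.17), and with the GC and length trend removed for Celf2 (−0.018), Pax7 (0.49), Rbfox1 (−0.32), Rbfox2 (0.13), Rbm24 (0.11) and Rbm38 (0.22). With a library left out, Rbfox1 ranged from −0.037 to 0.24.

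Tw2_48 against Pax7_48 gave 34 higher and 20 lower with size factors (median 0.24), 3 lower with quantile normalization (median 0.52), 0 lower with the trend removed (median 0.62; 1 lower and 0.89 as reported), and 50 to 74 higher and 0 to 2 lower with a library left out. Signs changed with size factors for Celf1 (−0.020), Igf2bp2 (−0.024), Mex3c (−0.32), Mex3d (−0.43), Pax7 (−0.25), Rbfox2 (−0.38) and Rbm24 (−0.073), with quantile normalization for Mex3c (−0.085) and Mex3d (−0.20), and with the trend removed for Celf2 (−0.093), Ddx28 (0.064) and Rbm38 (0.39).

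Pax7_48 against Pax7_GM with a library left out gave 12 to 33 members higher and 38 to 65 lower, with medians from −0.73 to −0.031. Mbnl1 was at 0.037 with size factors, and Pum2 at −0.025 after quantile normalization and −0.094 without the trend. With a library left out, Mbnl1 ranged from −0.80 to 0.39, Mbnl2 from −0.064 to 1.07 and Pum2 from −0.46 to 0.48. Tw2_48 against Tw2_GM had a members' median of −0.46 with size factors and −0.59 with the trend removed, and 50 to 76 members lower with a library left out. Mbnl2 was at 0.27 with size factors, 0.017 with the trend removed and −0.39 to 0.020 with a library left out.

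For the difference of the changes, 7 members were lower with a pseudocount of 5, 8 higher with quantile normalization, 9 lower with the trend removed, and 1 to 6 higher and 0 to 58 lower with a library left out. Mex3a was at 0.17 with size factors, 0.011 with quantile normalization and −0.21 to 0.081 with a library left out, Mex3d at 0.032 with size factors, and Rbm20 at −0.11 with the trend removed. With the Rbfox, Mbnl and Celf families alone, the muscle regulators' median minus that of the general factors was −0.091 between the lineages in GM, 0.11 at 48, where it changed sign, and 1.42 from GM to 48 in Tw2 cells.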
